A study of Mus musculus with 3 samples.

Results

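Acta2, Tagln, Cnn1, Myl9, Tpm1 and Tpm2 are genes of the smooth-muscle contractile apparatus. They were taken by symbol from the 32287 features of a droplet single-cell RNA sequencing matrix of mouse PC cells, in which each of the 6 symbols matched 1 feature, and all 6 are described here. PC cells come from esophageal organoids of Trp53 floxed/floxed mice. An adenovirus carrying Cre and EGFP removed Trp53, and CRISPR/Cas9 then disrupted Cdkn2a. The cells express Cas9 constitutively and received a barcode library by lipofection. They grew for 3 passages in medium with 10% fetal bovine serum, at first with the ROCK inhibitor Y-27632 and without it before sequencing, and live RFP-positive cells were sorted. All values come from this 1 culture, without an untreated or unedited control group and without replicates. The labels state neither how many mice gave the organoids nor whether the line is clonal.

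In smooth muscle, actin filaments built partly from the Acta2 product slide along myosin, whose regulatory light chain is encoded by Myl9. Tropomyosins from Tpm1 and Tpm2 lie along the filament, and calponin (Cnn1) and transgelin (Tagln) bind it. Fibroblasts that become myofibroblasts, myoepithelial cells and epithelial cells in culture can also make these proteins. Many of the genes are driven by serum response factor with its MRTF or myocardin partners, acting through a DNA element called the CArG box.

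The matrix held 18116 barcodes and 47720034 UMIs, each UMI standing for 1 captured RNA molecule. After barcodes with fewer than 500 genes, fewer than 1000 UMIs or more than 20% mitochondrial UMIs were dropped, 14925 cells remained, with a median of 2955 UMIs. Where cells were compared one by one, each was thinned at random to 1500 UMIs. This left out 1644 shallower cells and kept 13281. Doublets were in effect not removed, since Scrublet called 1 of the 14925 cells. Levels are CPM, the UMIs of a gene per 1000000 UMIs summed over a set of cells. All intervals are exact 95% intervals for counting error alone.

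CArG boxes were looked for in the 250 bases before the RefSeq start of each gene, as CC and GG around a core of 6 A or T bases. The pattern reads alike on both strands, and 1 other base was allowed in the core. A window was at hand for 5 of the 6 genes (RefSeq, GRCm38.p6). Acta2 and Myl9 held 2 matches each, while Cnn1, Tpm1 and Tpm2 held none in these 250 bases. Of 32851 such windows over all genes, 8.59% held a match and 1.47% held one with an intact core. The matches are shown because Myl9 levels went with Acta2 from cell to cell, as did those of Tpm1, Tpm2 and Cnn1, which held none. The matches describe letters, not binding. Capitals mark the match in each stretch.
Acta2, chr19:34255438-34255467, minus strand: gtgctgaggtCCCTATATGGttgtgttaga
Acta2, chr19:34255388-34255417, minus strand: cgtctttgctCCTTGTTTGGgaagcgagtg
Myl9, chr2:156775214-156775407, plus strand: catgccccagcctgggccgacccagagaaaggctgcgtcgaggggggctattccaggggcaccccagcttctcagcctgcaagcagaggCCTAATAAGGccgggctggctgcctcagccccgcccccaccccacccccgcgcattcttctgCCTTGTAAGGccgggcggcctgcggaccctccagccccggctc
The Acta2 matches lay 84 to 75 and 34 to 25 bases before its start, and each had 1 core base other than A or T. GENCODE M21 places both inside an untranslated exon of an Acta2 transcript that begins further upstream. The Myl9 matches lay 161 to 152 and 99 to 90 bases before its start, and the first had an intact core.

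Cells were divided by raw UMIs of the mesenchymal genes Vim, the intermediate filament vimentin, and Grem1, a secreted BMP antagonist, and of Epcam, an epithelial adhesion molecule. Vim/Grem1-positive cells had at least 2 UMIs of Vim plus Grem1 and none of Epcam, and there were 1516 of them, 10.2% of all. Epcam-positive cells had at least 1 UMI of Epcam and none of Vim or Grem1, and there were 11434, or 76.6%. A further 184 cells had Epcam and at least 2 UMIs of Vim plus Grem1, and 1791 fell in none of these groups. Median depth was 3329 UMIs in Vim/Grem1-positive cells, 2999 in Epcam-positive cells, 4409.5 in cells with both and 1824 in the rest. The names describe these gates and no cell type.

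Acta2 encodes smooth-muscle alpha actin (ENSMUSG00000035783, chromosome 19, 34241090 to 34255590, minus strand, GRCm38). High Acta2 lay mostly in the Vim/Grem1-positive cells. A cell was called Acta2-high at 9 or more of 1500 thinned UMIs, the 95th percentile, which took in 717 cells. Of these, 573 were Vim/Grem1-positive, a share of 79.9% (76.8 to 82.8, Clopper-Pearson), while that gate held 11.3% of the thinned cells. Another 46 were Epcam-positive, a share of 6.42% (4.73 to 8.47), against 78.9% of the thinned cells. The remaining Acta2-high cells were 34 with both kinds of marker and 64 of the rest. Of those 64 cells, 38 had no Epcam and 1 UMI of Vim or Grem1. At the threshold, 87 cells had exactly 9 UMIs and 94 had 8. The Epcam-positive share depended on that threshold, at 21.7% from the 90th and 1.32% from the 99th percentile, and was 3.17% among cells of at least 1000 genes and 2000 UMIs.

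**Figure D1:**
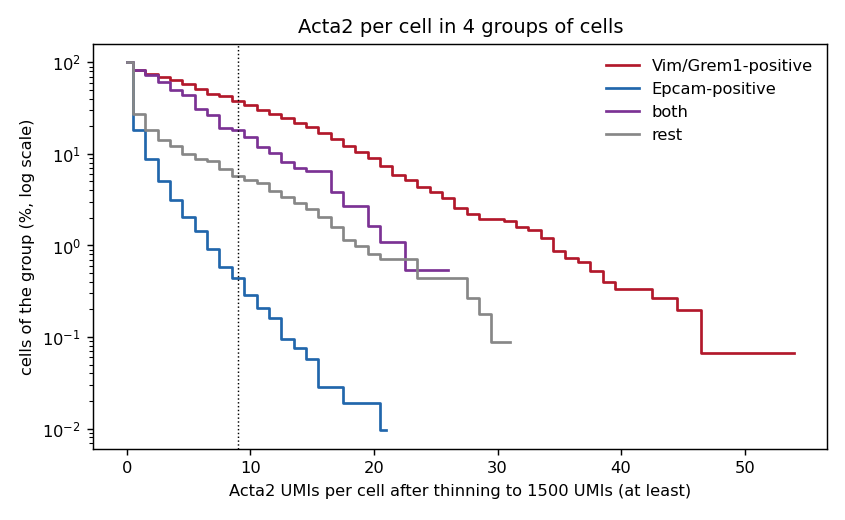
Share of cells (%, log scale) with at least the number of Acta2 UMIs on the x axis, after thinning each cell to 1500 UMIs, in 4 groups of cells defined by Vim, Grem1 and Epcam. The dotted line marks 9 UMIs, reached by 38.1% of Vim/Grem1-positive cells and 0.439% of Epcam-positive cells.

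Acta2 was not confined to cells with the mesenchymal markers. Among thinned cells, 82.8% of the Vim/Grem1-positive and 18.4% of the Epcam-positive cells had at least 1 Acta2 UMI. Without thinning the shares were 86.9% and 25.4%. The median Vim/Grem1-positive cell held 6 thinned Acta2 UMIs and the highest held 54. The median Epcam-positive cell held 0, with a 95th percentile of 3 and a highest value of 21. The ranges of these groups overlapped from 0 to 21 UMIs. In cells with both kinds of marker the median was 3.5 UMIs and the highest 26.

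Summed over all kept cells of a gate, Acta2 stood at 5548 CPM in Vim/Grem1-positive and at 254.6 CPM in Epcam-positive cells, a ratio of 21.8 (21.3 to 22.3). A gene was called higher where its level was 2-fold or more that in the other cells and reached 10 CPM. This is a rule of size and not a test, since 1 sample allows none. By it, 5 of the 6 contractile genes were called higher in Vim/Grem1-positive cells and none in Epcam-positive cells. Over all 9113 genes tested, 11.1% were called higher in Vim/Grem1-positive and 11.2% in Epcam-positive cells. The genes had been chosen with their pattern in these cells known, so the count describes them and supports nothing.

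Tagln encodes transgelin, an actin-binding protein early in the smooth-muscle programme (ENSMUSG00000032085, chromosome 9, 45929619 to 45936058, minus strand). It stood at 586 CPM in Vim/Grem1-positive and 19.5 CPM in Epcam-positive cells, a ratio of 30.1 (27.7 to 32.8). Pcsk7 and Gm48529 overlap Tagln on the other strand, and the sources used here do not state whether the counting used strand. Cnn1 encodes calponin 1, a later marker of smooth muscle (ENSMUSG00000001349, chromosome 9, 22099216 to 22109630, plus strand). Its 145 UMIs in Vim/Grem1-positive cells made 28.0 CPM and its 8 UMIs in Epcam-positive cells 0.225 CPM, a ratio of 124 (61.4 to 293). Both genes were thus at a small fraction of their Vim/Grem1-positive level in the Epcam-positive cells, and the Cnn1 ratio is known only to within a wide interval.

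Myl9, the regulatory light chain of smooth-muscle and nonmuscle myosin, lies on chromosome 2 (ENSMUSG00000067818, 156775420 to 156781658, plus strand). It stood at 176 CPM in Vim/Grem1-positive and 5.68 CPM in Epcam-positive cells, a ratio of 30.9 (26.5 to 36.2). The tropomyosins had smaller ratios than the other 4 genes. Tpm1, which makes muscle and nonmuscle tropomyosins by alternative splicing, stood at 6260 and 2099 CPM, a ratio of 2.98 (2.94 to 3.02). Tpm2, the gene of beta-tropomyosin, stood at 452 and 424 CPM, a ratio of 1.06 (1.02 to 1.11), and was not called. Tpm1 (ENSMUSG00000032366) lies on chromosome 9, 67022590 to 67049406, and Tpm2 (ENSMUSG00000028464) on chromosome 4, 43514711 to 43523765, both on the minus strand.

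The nonmuscle actins, which most cells make, gave a yardstick. Actb differed 1.44-fold and Actg1 1.40-fold between the same gates, and neither was called. The median log2 ratio was 4.68 over the 6 contractile genes and -0.02 over all genes tested. After thinning, Tagln was found in 24.8% of Vim/Grem1-positive and 1.75% of Epcam-positive cells, and Tpm2 in 44.3% and 45.2%.

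**Figure D2:**
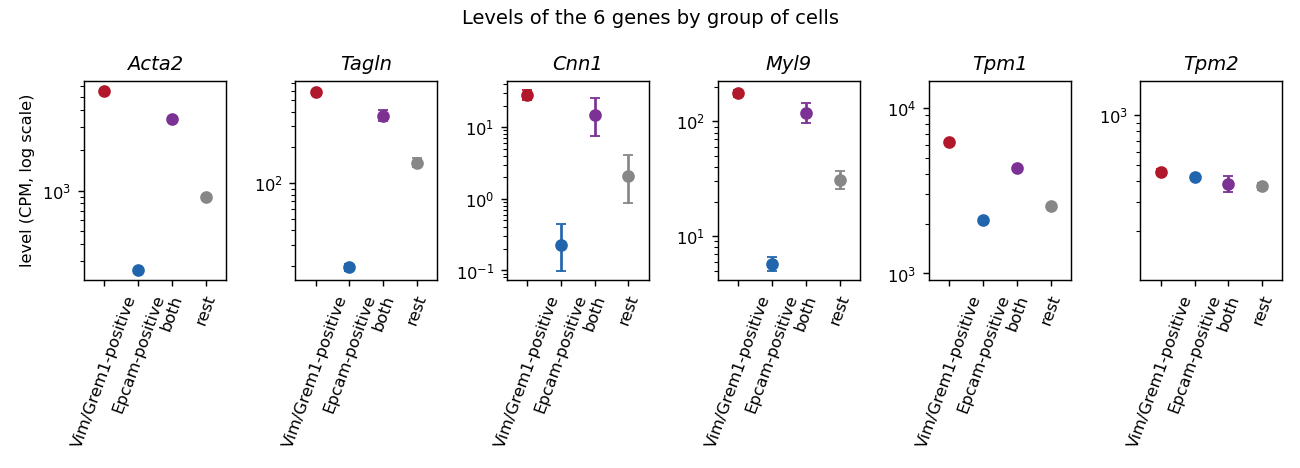
Level of each of the 6 genes (CPM, log scale, own axis per gene) in Vim/Grem1-positive, Epcam-positive, both-marker and remaining cells, with exact 95% counting intervals. Acta2, Tagln, Cnn1 and Myl9 fall in the order Vim/Grem1-positive, both, rest, Epcam-positive, whereas Tpm2 lies between 371 and 452 CPM in all 4 groups.

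Cells carrying both kinds of marker lay between the gates for 5 genes. Their levels were 3425 CPM for Acta2, 371 CPM for Tagln, 14.6 CPM for Cnn1, 119 CPM for Myl9 and 4331 CPM for Tpm1. For Tpm2 they stood at 383 CPM, below both gates. These 184 cells had the highest median depth of the groups, and the part that pairs of cells sharing a droplet have in them was not tested.

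RNA free in the suspension can give UMIs in cells that do not make a gene, so the Epcam-positive levels were set beside those of mesenchymal matrix genes. Col1a1, a fibrillar collagen, stood in Epcam-positive cells at 0.969% of its Vim/Grem1-positive level, Col5a1 at 0.502% and Col3a1 at 0.105%. The contractile genes stood at 4.59% for Acta2, 3.32% for Tagln, 3.23% for Myl9 and 0.805% for Cnn1. The first 3 of these percentages are above those of Col1a1, Col5a1 and Col3a1, and the Cnn1 value, from 8 UMIs, is within their range. Of the other genes of the mesenchymal list, Aebp1 stood at 0.676%, Dcn at 0.503% and Pdgfrb, from 18 and 0 UMIs, at 0% (up to 3.32). Those that remain stood above Tagln and Myl9. Col1a2, from 4 and 2 UMIs, stood at 7.29% (0.660 to 50.9), the transcription factors Zeb1 and Zeb2 at 4.19% and 9.74%, and Twist1, from 8 and 75 UMIs, at 137% (66.0 to 328). A Col1a1 UMI was present in 0.411% of thinned Epcam-positive cells and 32.2% of thinned Vim/Grem1-positive cells. There were 18.2 Acta2 UMIs per Col1a1 UMI in Vim/Grem1-positive cells (17.3 to 19.1) and 86.2 in Epcam-positive cells (71.1 to 105). This ratio was uneven among the clusters described below. The gates were set on Vim and Grem1 RNA, and the part of free RNA in the Epcam-positive levels was not tested.

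The next comparison asked which partners followed Acta2 inside each gate. Acta2-high cells were set against cells of the same gate with 0 thinned Acta2 UMIs, and Acta2 itself was left out of the totals. In Vim/Grem1-positive cells all 5 partners were higher in the 573 Acta2-high than in the 259 Acta2-zero cells. Tagln stood at 957 and 75.6 CPM, a ratio of 12.7 (9.83 to 16.6), and Myl9 at 314 and 28.1 CPM, a ratio of 11.2 (7.40 to 17.8). Cnn1 had 109 UMIs and none, which makes it at least 14.7-fold higher against a limit of 3 UMIs over the Acta2-zero cells. Of all 8766 genes tested, 2.56% were called higher in the Acta2-high cells and 9.1% in the Acta2-zero cells. Among genes with at least 50 CPM these shares were 1.97% and 5.03%, and all 5 partners were called there too.

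Both tropomyosins followed Acta2 in these cells as well, by a smaller factor. Tpm1 stood at 8282 and 3275 CPM, a ratio of 2.53 (2.43 to 2.64), and Tpm2 at 610 and 244 CPM, a ratio of 2.50 (2.15 to 2.92). Tpm2 therefore differed with Acta2 inside the Vim/Grem1-positive gate while it was nearly level between the gates. The nonmuscle actins had ratios of the same size, 2.66 for Actb and 2.78 for Actg1. The median log2 ratio over all genes tested was -0.22.

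In Epcam-positive cells 46 Acta2-high cells were set against 8550 Acta2-zero cells. The 3 partners Tagln, Myl9 and Tpm1 were called higher. Tagln stood at 929 and 6.24 CPM, a ratio of 149 (117 to 189, from 121 and 177 UMIs). Myl9 stood at 154 and 1.13 CPM, a ratio of 136 (73.8 to 246, from 20 and 32 UMIs). The sizes of both ratios depended on the settings. On the log2 scale Tagln, at 7.22 here, was 5.51 with Acta2-high taken from the 90th percentile and 6.61 with gates at 3 UMIs. Myl9, at 7.09, was 6.31 from the 90th percentile and, from 3 UMIs, 5.11 with those gates. The Tagln levels of the Acta2-high cells of both gates had overlapping intervals, while the Acta2-zero cells of the Epcam-positive gate held less of either gene than those of the other gate. Tpm1 stood at 5128 and 1900 CPM, a ratio of 2.70 (2.50 to 2.91).

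Tpm2 and Cnn1 were not called there. Tpm2 stood at 745 and 397 CPM, a ratio of 1.88 (1.52 to 2.29), just under the threshold of 2. Cnn1 had 1 UMI in each set, so its behaviour in Epcam-positive cells is not known at this depth. By the rule, 15.7% of 8927 genes were called higher in the Acta2-high and 4.13% in the Acta2-zero cells. Counts under 3 UMIs were set to 3, which makes 23.0 CPM in so few cells, so that genes with fewer UMIs could be called higher there, and 119 of these 1402 genes had no UMI in the 46 cells. Where a call also needed 3 UMIs in the higher cells, a condition added after the data had been seen, 668 genes remained, or 7.48%, and Tagln, Myl9 and Tpm1 were still called. Among genes with at least 50 CPM the shares were 7.55% and 8.31%, and the same 3 partners were called. Actb had a ratio of 2.27 and was called, and Actg1 had a ratio of 1.99.

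The epithelial lists did not all stand alike in the 46 cells, which have Epcam by the gate. The basal keratinocyte list (Krt5, Krt14, Krt15, Trp63, Sox2, Itga6, Itgb4 and Col17a1) summed to 2828 CPM in them and to 2955 CPM in Acta2-zero Epcam-positive cells, with 7 of 8 genes detected. In Acta2-high Vim/Grem1-positive cells the list summed to 296 CPM. The 12-gene list of differentiated squamous cells summed to 374 CPM (276 to 494) in the 46 cells and to 729 CPM in the Acta2-zero cells, with Sprr1a called lower. The 8-gene simple epithelial list summed to 1639 CPM (1427 to 1873) and 1141 CPM, with Krt7 called higher and Krt19 lower. The 12-gene mesenchymal list, in which Vim and Grem1 are 0 by the gate, gave 11 UMIs in the 46 cells, or 83.9 CPM (41.9 to 150), and 17.8 CPM in the Acta2-zero cells. Col1a2, Col3a1, Dcn, Pdgfrb and Twist1 were at 0 there. The 46 cells held 917 Acta2 UMIs and 2 of Col1a1, a ratio of 458.5 (127 to 3792). The Acta2-high Vim/Grem1-positive cells, chosen on Acta2 in the same way, had a ratio of 33.0 (30.5 to 35.7). Choosing cells for high Acta2 raises this ratio, and the gates exclude or require Vim and Grem1 RNA, so both ratios are descriptive only. The median depth of the 46 cells was 2645.5 UMIs, below the 3158 of the Acta2-zero Epcam-positive cells.

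A graded view was taken by dividing each gate into cells with 0, 1 to 4, 5 to 19 and 20 or more thinned Acta2 UMIs, bins set after the data had been seen. In Vim/Grem1-positive cells the 4 bins held 259, 367, 739 and 137 cells. Tagln went across them from 75.6 to 334, 745 and 1273 CPM, and Myl9 from 28.1 to 77.8, 228 and 402 CPM. Cnn1 went from 0 to 13.9, 34.3 and 78.3 CPM. All 3 genes were thus higher in each successive bin, with intervals that did not overlap between neighbouring bins. Tpm1 went from 3275 to 5019, 7218 and 9645 CPM, and Tpm2 from 244 to 364, 524 and 663 CPM. The gate genes did not follow alike, since Vim went from 992 to 1358 CPM and Grem1 from 590 to 249 CPM between the lowest and the highest bin. Col1a1 stood at 209, 315, 338 and 275 CPM over the 4 bins and Col3a1 at 46.3, 115, 77.7 and 70.3 CPM.

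In Epcam-positive cells the first 3 bins held 8550, 1708 and 213 cells and the last held 2, which are not read further. Tagln went from 6.24 to 50.6 and 366 CPM, and Myl9 from 1.13 to 20.05 and 92.4 CPM. Tpm1 went from 1900 to 2862 and 3935 CPM, and Tpm2 from 397 to 549 and 715 CPM. The rank of the bins was thus the same in both gates for these 4 genes. Epcam itself stood at 1335, 1367 and 1318 CPM and Krt5 at 742, 703 and 745 CPM. Both were nearly level over the same bins, though every cell has Epcam by the gate. Other epithelial genes differed, as Krt7 was called higher and Krt19 and Sprr1a lower in the Acta2-high cells of this gate. Col1a1 stood at 2.82, 3.56 and 10.5 CPM.

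**Figure D3:**
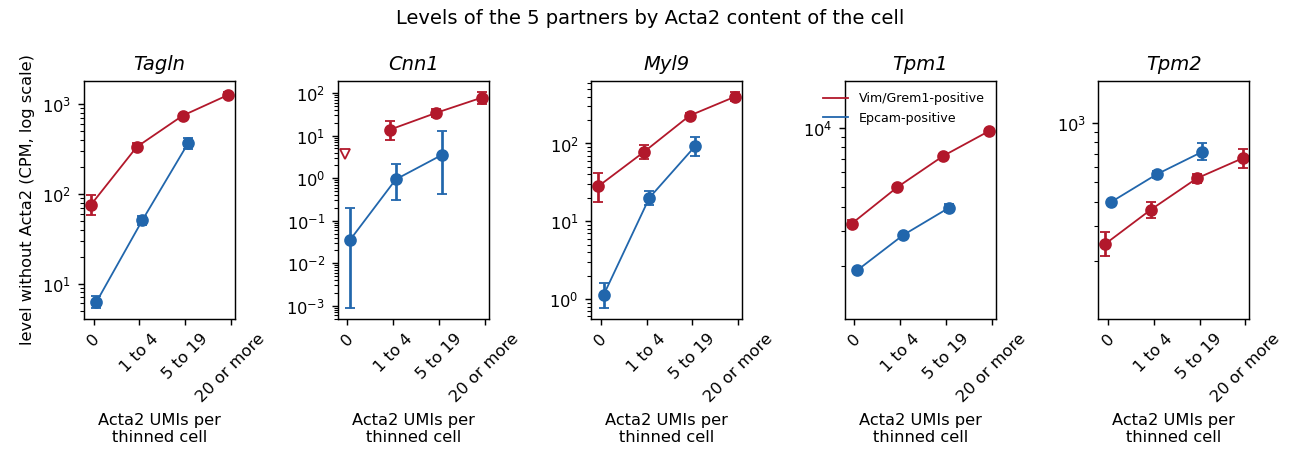
Level of each partner gene (CPM with Acta2 left out of the total, log scale, own axis per gene) against the thinned Acta2 UMIs of the cell, for Vim/Grem1-positive (red) and Epcam-positive (blue) cells, with exact 95% counting intervals. The triangle is the limit of 3 UMIs where Cnn1 had none, and the bin of 20 or more with 2 Epcam-positive cells is not drawn. The Tagln, Myl9 and Tpm1 lines climb in both gates, and the blue Tpm2 line runs above the red one.

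The gates were also set against each other within the bin of 5 to 19 UMIs, where Acta2 itself was not alike. The median was 10 Acta2 UMIs in Vim/Grem1-positive and 6 in Epcam-positive cells, and 436 of 739 against 44 of 213 cells had 9 or more. The part of this gap in the ratios that follow was not tested. Tagln stood at 745 CPM in Vim/Grem1-positive and 366 CPM in Epcam-positive cells, a ratio of 2.04 (1.76 to 2.36). Myl9 had a ratio of 2.47 (1.86 to 3.34), and Cnn1, with 89 and 2 UMIs, one of 9.82 (2.64 to 82.4). Tpm1 had a ratio of 1.83 (1.76 to 1.92). Tpm2 ran the other way and was 1.36-fold higher in the Epcam-positive cells (1.22 to 1.52). Of the 5 partners, 3 were called higher in Vim/Grem1-positive cells, beside 13.3% of 9080 genes, and none in Epcam-positive cells, beside 11.7%. Actb at 0.942 and Actg1 at 1.04 were close to level.

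Most single cells held few of the low-level partners at once. At least 1 of Tagln, Cnn1 and Myl9 was found in 10.4%, 28.1%, 48.4% and 60.6% of Vim/Grem1-positive cells over the 4 bins. In Epcam-positive cells it was found in 0.971%, 7.08% and 26.3% over the first 3 bins. All 3 together were found in 6 of the 137 Vim/Grem1-positive cells with 20 or more Acta2 UMIs. None of the 213 Epcam-positive cells with 5 to 19 UMIs held all 3 (exact interval up to 1.72%).

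Genes were ranked by Spearman's rho with Acta2 over thinned cells, leaving out genes with a gate mean under 0.1 thinned UMIs. These values are descriptive, since all cells share 1 library and low counts pull rho towards 0. Over 1502 Vim/Grem1-positive cells and 2589 genes, Tpm1 ranked first with a rho of 0.556. It was followed by the actin Actg1 (0.553), the myosin light chain Myl6 (0.495), the actin Actb (0.489) and the matricellular gene Ccn2 (0.430). Pfn1, Tmsb4x, Ppia, Cavin3 and Lgals1 filled ranks 6 to 10, with rho from 0.374 to 0.326. Myl9 ranked 16 (0.292), Tagln 20 (0.277) and Tpm2 24 (0.230), so 4 of the 5 partners stood among the first 24 of 2589 genes. Cnn1 (0.160) was too sparse to be ranked.

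Over 10473 Epcam-positive cells and 2603 genes the rho values were lower. Tmsb4x (0.303), which encodes a protein that binds actin monomers, Actb (0.301), Myl6 (0.269) and Tpm1 (0.249) led, and Tpm2 ranked 58 (0.094). Cavin3, Myl12a, Tmsb10, Cald1, Hspb1 and Actg1 completed the first 10. Tagln (0.169) and Myl9 (0.160) had means under the minimum and were not ranked. Actb, Actg1, Myl6, Tmsb4x, Cavin3 and Tpm1 stood in the first 10 of both gates.

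**Figure D4:**
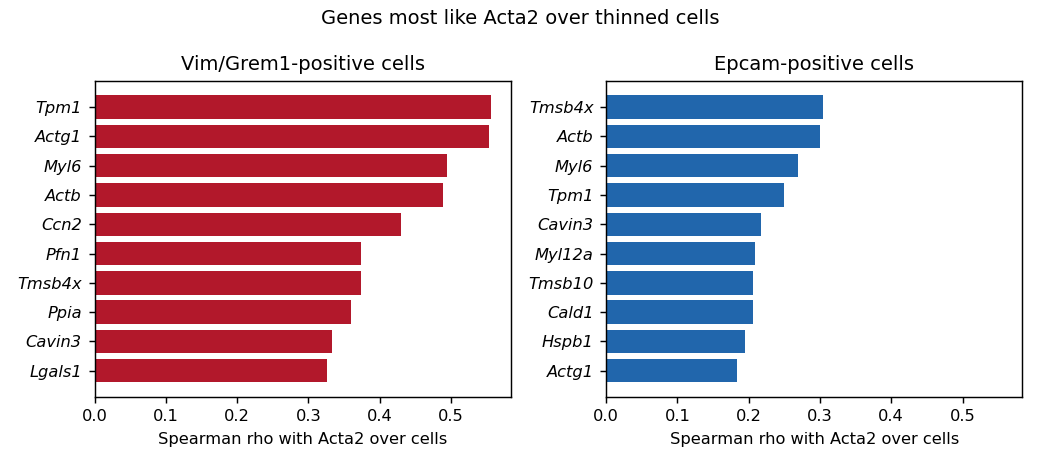
The 10 genes with the highest Spearman rho with Acta2 (x axis, no unit) over 1502 thinned Vim/Grem1-positive cells (left) and 10473 thinned Epcam-positive cells (right). Tpm1 leads on the left at 0.556 and has the rank 4 on the right at 0.249.

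Other contractile genes showed which further members of the programme were present. In Vim/Grem1-positive cells Actg2, the enteric smooth-muscle actin, had 518 UMIs, or 99.9 CPM, against 2 UMIs in Epcam-positive cells. Inside the Vim/Grem1-positive gate it stood at 183 CPM in Acta2-high and, from 1 UMI, at 1.22 CPM in Acta2-zero cells, a ratio of 150 (26.8 to 5959). Actins share long coding stretches, and the sources used here do not state how reads common to Acta2 and Actg2 were counted. The 8-gene list set up for smooth muscle, not all of whose genes are particular to it, had 762 UMIs in the 1516 cells, or 147 CPM. It was uneven. Next to the 518 UMIs of Actg2 there were 150 of Smtn, 48 of Ldb3 and 36 of Synpo2, but 4 of Myh11, the smooth-muscle myosin heavy chain, 4 of Lmod1, 2 of Myocd and none of Des (desmin). In the 11434 Epcam-positive cells the list summed to 30.9 CPM, and 1033 of its UMIs were of Smtn. Only 2 genes of this list, Actg2 and Smtn, reached 10 CPM and were tested between the gates. Actg2 was called higher in Vim/Grem1-positive cells, beside 11.1% of all genes, and Smtn was not called. Ldb3 and Synpo2, with 24 and 21 UMIs in the 11434 Epcam-positive cells, were under the minimum in both gates and were not tested. In the 46 Acta2-high Epcam-positive cells Myh11, Actg2, Des, Lmod1, Myocd and Ldb3 were all at 0. The 8-gene list summed to 238 and 37.8 CPM in Acta2-high and Acta2-zero Vim/Grem1-positive cells. In Epcam-positive cells it summed to 45.7 (16.8 to 99.6) and 32.0 CPM.

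The list of other contractile genes had 7 of 15 tested genes called higher in Acta2-high Vim/Grem1-positive cells, beside 2.56% of all genes. None was called lower, beside 9.1%, and the median log2 ratio was 0.98. Beside Actg2, Ldb3 was called, from 27 and 2 UMIs, with a ratio of 5.45 (1.37 to 47.3). Csrp1 (3.05), Tagln2 (2.67) and Cnn2 (2.64) also passed. In Epcam-positive cells 7 of 13 were called higher and none lower, with a median of 1.04. Over all genes 15.7% were called higher there, or 7.48% where 3 UMIs were needed. Cald1 (3.36), Csrp1 (2.78), Myl6 (2.51) and Cnn2 (2.39) were among the 7, and Cald1 encodes caldesmon, which binds actin and tropomyosin.

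Of 19 tested genes of the actin cytoskeleton and of focal adhesions, the sites where filaments anchor to matrix, 8 were called higher in Acta2-high Vim/Grem1-positive cells, beside 2.56% of all genes, with a median of 0.91. In Acta2-high Epcam-positive cells 12 were called higher, beside 15.7% of all genes, or 7.48% where 3 UMIs were needed, with a median of 1.15. None was called lower, and all 12 calls held 3 UMIs or more. Fhl1, a LIM-domain protein, led in both gates. It stood at 354 and 64.6 CPM in the Vim/Grem1-positive cells, a ratio of 5.47 (4.14 to 7.38). In the Epcam-positive cells it stood at 177 and 2.92 CPM, a ratio of 60.4 (36.3 to 96.8). The integrin Itga5 had ratios of 3.18 and, from 4 UMIs, of 6.55 (1.76 to 17.2), and the kinase-like adaptor Ilk had ratios of 2.63 and 3.69.

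The list of serum response factor and MRTF regulators and targets had 5 of 14 genes called higher and none lower in Acta2-high Vim/Grem1-positive cells, with a median of 0.21. Over all genes 2.56% were called higher and 9.1% lower. Among the 5 were Ccn2 (4.75), Ankrd1 (3.90), Ccn1 (2.83) and Vcl (2.62). In Epcam-positive cells 8 of 16 were called higher, among them Srf, Ccn2 (4.06), Ccn1 (3.36), Yap1 and Ankrd1, and Egr1 was called lower, with a median of 0.81. There 15.7% of all genes were called higher, or 7.48% where 3 UMIs were needed, and 4.13% lower. Ccn1, Ccn2 and Ankrd1 are also known as targets of YAP. TGF-beta, known as an inducer of Acta2 in fibroblasts, had a pathway list that did not move with it in this way. None of its 16 genes was called higher in Acta2-high Vim/Grem1-positive cells, and Tgfb3, Ltbp2 and Tgfbr3 were called lower, with a median of -0.31. None of 16 is near the 2.56% of all genes called higher, and 9.1% were called lower. In Epcam-positive cells Tgfb3, from 4 UMIs, and Id3 were called higher and Smad4 lower, of 16 tested, with a median of 0.42. The 12.5% called higher there is near the shares over all genes, 15.7% or 7.48% where 3 UMIs were needed.

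Fibroblast matrix genes differed in how they went with Acta2. Between the gates 14 of 16 were called higher in Vim/Grem1-positive cells, beside 11.1% of all genes, with a median log2 ratio of 5.47. Inside that gate none of 17 was called higher in Acta2-high cells, which is near the 2.56% of all genes. In the other direction 3 were called lower, beside 9.1%. Pdgfra, the receptor of many fibroblasts, was 0.209 times (0.101 to 0.413) its Acta2-zero level, the proteoglycan Dcn 0.359 times (0.228 to 0.562) and Col6a1 0.364 times (0.255 to 0.517), and the median was 0.02. In Epcam-positive cells 7 of 9 were called higher with Acta2, but Col1a1 and Loxl2 from 2 UMIs each, and 5 of 9 remained where 3 UMIs were needed. The shares over all genes were 15.7% and 7.48%. Lox and Loxl1 were called from 6 and 5 UMIs, and S100a4 from 31, with a ratio of 2.03 (1.37 to 2.88). Sparc stood at 591 and 125 CPM, a ratio of 4.73 (3.73 to 5.93), and the fibronectin gene Fn1 at 1228 and 326 CPM, a ratio of 3.77 (3.20 to 4.41).

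Markers of other cells that could carry contractile genes were given the same reading. The pericyte genes Rgs5, Kcnj8, Abcc9 and Higd1b were at 0 in Acta2-high cells of both gates. Mcam, a pericyte and adhesion gene, was called higher in both, with 44 and 8 UMIs in Vim/Grem1-positive cells and 14 and 230 UMIs in Epcam-positive cells, or 107 and 8.10 CPM. The 8-gene pericyte list summed to 25.8 and 15.9 CPM in Acta2-high and Acta2-zero Vim/Grem1-positive cells and to 107 and 18.95 CPM in Epcam-positive cells, where all 14 UMIs of the Acta2-high cells were of Mcam. None of 9 tested genes of the myoepithelial list was called in Epcam-positive cells in either direction, with a median of 0.58. Over all genes 15.7% were called higher there, or 7.48% where 3 UMIs were needed, and 4.13% lower. In the Vim/Grem1-positive cells 4 of 8 immune markers were detected, at 13.7 CPM in all, with Ptprc at 0 and Cd68, called higher than in Epcam-positive cells, giving 68 of the 71 UMIs. Of 8 endothelial markers 4 were detected, at 7.14 CPM in all, with Cdh5, Emcn, Cldn5 and Tek at 0 and Egfl7 giving 33 of the 37 UMIs. The muscle genes Actc1, Myod1 and Myog were at 0, and the skeletal actin gene Acta1 had 14 UMIs. The 8-gene cycling list summed to 153 and 173 CPM in Acta2-high and Acta2-zero Vim/Grem1-positive cells. In Epcam-positive cells it summed to 160 CPM (99.1 to 245) and 652 CPM, and its part in the contractile gene levels was not tested.

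Cells were also clustered with the 6 genes and the list of other contractile genes held out of the clustering, which gave 11 clusters. Cluster 4, mesenchymal-like by its markers, had 1962 cells and held 669 of the 717 Acta2-high cells. All 573 Vim/Grem1-positive and all 34 both-marker Acta2-high cells were in it. The gate genes were not held out, and 99.9% of all Vim/Grem1-positive and 89.7% of all both-marker cells were also in it. Acta2 stood there at 5077 CPM, Tagln at 582 CPM, Cnn1 at 24.5 CPM, Myl9 at 166 CPM, Tpm1 at 5932 CPM and Tpm2 at 434 CPM. It had 1927 of the 13281 thinned cells, and 34.7% of the 1927 were Acta2-high, so Acta2 also varied inside it.

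Acta2 was uneven among the other clusters as well. It stood at 677 CPM (659 to 696) in cluster 2, which has 3362 cells, has Krt7 and Sorbs2 among its leading genes and was given no name. It stood at 634 CPM (580 to 693) in cluster 8, an interval that overlaps that of cluster 2. The cycling-like cluster 3 had 247 CPM and cluster 1, the largest, 118 CPM. Clusters 5, 6, 7, 9 and 10 had between 40.5 and 93.1 CPM, and cluster 11 had no Acta2 UMI among 65 cells, with a limit of 23.1 CPM. Of the 46 Acta2-high Epcam-positive cells, 37 (80.4%) were in cluster 2, 3 in cluster 4 and 2 each in clusters 1, 3 and 8. Cluster 2 was shallow, with a median of 1973.5 UMIs, and there were 202 Acta2 UMIs per Col1a1 UMI in it (137 to 313). That ratio was 140 in cluster 3, 55.0 (14.9 to 460) in cluster 7, 40.1 in cluster 1 and 17.7 in cluster 4. It was 26.1 (15.3 to 48.2) in cluster 5, 9.75 (3.52 to 37.6) in cluster 9 and 7.0 (2.96 to 20.1) in cluster 6. Cluster 8 had 1 Col1a1 UMI, and clusters 10 and 11 had none.

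**Figure D5:**
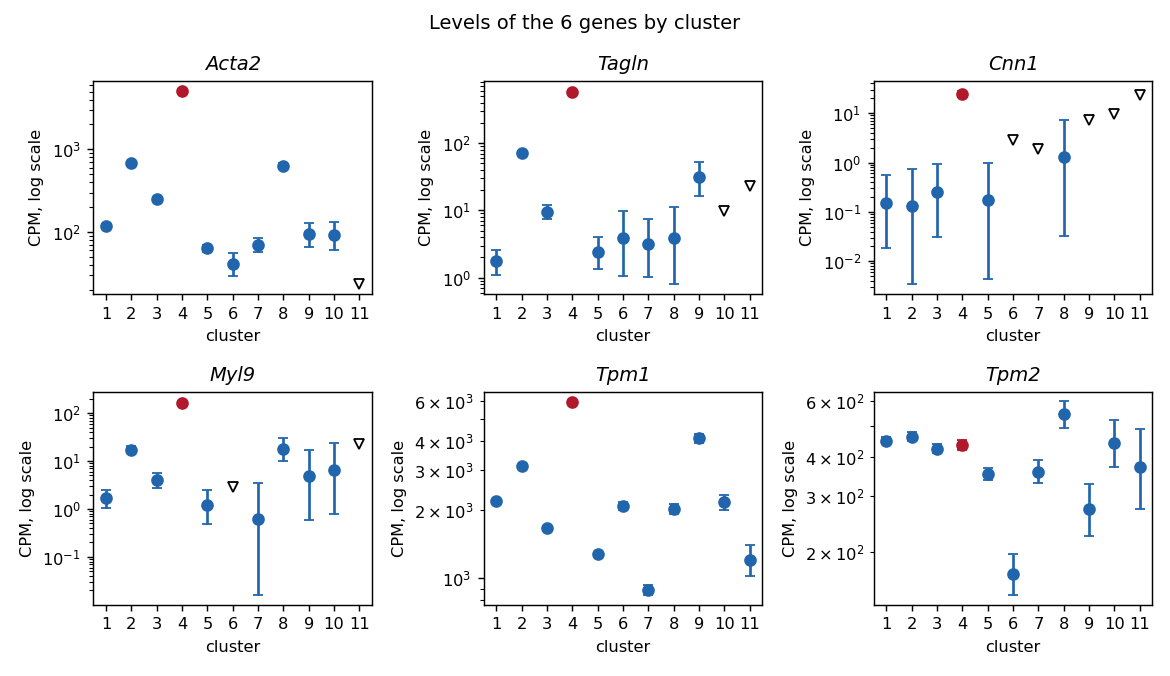
Level of each of the 6 genes (CPM, log scale, own axis per gene) in 11 Leiden clusters made without these genes, with exact 95% counting intervals. Red marks cluster 4, the mesenchymal-like cluster, and triangles mark the limit of 3 UMIs where a gene had none. Acta2, Tagln, Cnn1, Myl9 and Tpm1 have their highest measured level in cluster 4, and Tpm2 has it in cluster 8.

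The partners did not all share the order of Acta2 over the clusters. Tagln was at 71.1 CPM in cluster 2 but, from 3 UMIs, at 3.84 CPM (0.793 to 11.2) in cluster 8. Myl9 was at 17.3 CPM in cluster 2 and 17.9 CPM in cluster 8, with overlapping intervals. Tpm1 was at 3110 CPM in cluster 2 and 2012 CPM in cluster 8, and its second highest level was 4125 CPM in cluster 9, led by Ly6c1, where Acta2 stood at 93.1 CPM. The lowest Tpm2 level was the 170 CPM of cluster 6 and the highest the 543 CPM of cluster 8, with 434 CPM in cluster 4. Clusters 2 and 8, level in Acta2, thus differed in Tagln, and cluster 9 had high Tpm1 with low Acta2. With 1 library these are differences between sets of cells of 1 culture.

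Over all thinned cells, Acta2 had a variance-to-mean ratio of 11.1, rank 8 of the 2624 genes that averaged 0.1 UMIs or more, whose median was 1.05. Tagln was at 5.88 (rank 14), Tpm1 at 3.51 (rank 26) and Tpm2 at 1.14 (rank 537). Cnn1 and Myl9 had means under the minimum. Acta2 also kept a ratio of 7.81 inside the Vim/Grem1-positive and 3.85 inside the Epcam-positive gate. This spread is part of what led to the choice of these genes and is given as a description.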

How the data were processed

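Libraries of 3 kinds were labelled for 1 PC culture, namely gene expression (10x Genomics 3' v2 per the labels), genetic barcodes and scar regions, each with 1 replicate. The deposited values are raw UMI counts per gene and cell barcode in a single matrix, which the file headers credit to CellRanger 8.0.1, and they were not normalized, as the deposited whole numbers show. The build mm10 and Scanpy 1.8.2 stand in the submitters' processing notes. Which library supplied the matrix is not given, so it was used as 1 pooled sample of counts. The lowest barcode total was 500 UMIs, and no barcode occurred more than once.

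Counts were summed over sets of cells and divided by total UMIs to give CPM. Shares have Clopper-Pearson intervals, and ratios of counts have exact binomial ones. With 1 sample there is no p-value. A call needed a ratio of 2 and 10 CPM, with counts under 3 UMIs set to 3 in either set. Scrublet, Leiden clustering (scanpy 1.11.5, igraph 0.11.9; 2000 variable genes, 30 components, 15 neighbours, resolution 0.6; 29 contractile genes held out) and numpy 2.4.6 were used. Positions came from GENCODE M21, which held 32235 of the 32287 feature IDs. The calling steps were tested on simulated data. Alternatives covered cell filters, gates, thinning, the Acta2 percentile, doublet scores, the added GFP and Scar features, the CPM minimum and cluster resolution.

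Named genes are the 6 genes, the 10 with the highest rho per gate, up to 5 called genes per list and direction, the gate genes, Actb and Actg1. Other names were chosen after their values were seen. The genes, lists and rules were chosen with earlier results of these data known. Mkl1 and Mkl2, older symbols of Mrtfa and Mrtfb, matched no feature. Some genes counted in the lists are not reported here by name.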

Additional observations from a re-analysis of the deposited data

How the results depend on the processing

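The share of Acta2-high cells that were Epcam-positive moved with the settings. It was 6.42% as reported, 3.17% with at least 1000 genes and 2000 UMIs per cell, 3.77% with gates at 3 UMIs and 8.84% after thinning to 1000 UMIs. It was 21.7% with Acta2-high taken from the 90th percentile (4 UMIs) and 1.32% from the 99th (20 UMIs). The Vim/Grem1-positive share, 79.9% as reported, was 83.3% without the 10% of cells scored highest by Scrublet, 71.0% with gates at 3 UMIs, 76.7% after thinning to 1000 UMIs, and 63.2% and 90.7% from the 90th and 99th percentiles. With gates from 12 mesenchymal markers and from Epcam plus Cdh1, an alternative added after seeing the data, it was 83.8%. The log2 ratio of Acta2 between the gates, 4.45 as reported, was 4.61 with the stricter cell filter, 4.59 with gates at 3 UMIs and 4.32 with gates on thinned counts. In Vim/Grem1-positive cells 5 partners were called in every alternative run, and in Epcam-positive cells between 2 and 4. Of the values for single partners, 138 kept their call, 2 lost it and 5 gained it, and none changed direction. Lost were Tagln and Myl9 in Epcam-positive cells from the 99th percentile, which leaves 2 cells with no UMI of either. Gained were Tpm2 in 3 alternatives and Cnn1 in 2, both in Epcam-positive cells, the Cnn1 calls from 1 and 2 UMIs. With 3 UMIs needed in the higher cells, an alternative added after seeing the data, 3 partners were called in Epcam-positive and 5 in Vim/Grem1-positive cells as before. The mesenchymal-like cluster held 5077 CPM of Acta2, 5088 at resolution 0.3 and 5130 at resolution 1.0, where a further cluster reached 4414. No paired analysis was possible because each library is 1 replicate and all values come from 1 pooled matrix. Depth limits Cnn1 most, with 8 UMIs in all Epcam-positive cells, and the 46 Acta2-high Epcam-positive cells, in which 3 UMIs make 23.0 CPM.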

Other observations

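Partners were also higher with Acta2 among cells without a marker group. The bin of 5 to 19 UMIs used for this begins below the Acta2-high threshold of 9 UMIs. Among cells that fell in none of the marker groups, 104 had 5 to 19 thinned Acta2 UMIs, and Tagln stood there at 1008 CPM (901 to 1126), Myl9 at 257 CPM and Tpm1 at 6282 CPM. The 818 such cells with 0 Acta2 UMIs had 15.3 CPM of Tagln, 4.05 CPM of Myl9 and 1851 CPM of Tpm1. Of the 64 Acta2-high cells of this group, 59 were in cluster 4, the mesenchymal-like cluster.

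Cells with both kinds of marker showed the same order of bins. Tagln stood at 30.2 CPM in 33 cells with 0 thinned Acta2 UMIs, at 158 CPM in 71 cells with 1 to 4 and at 646 CPM in 77 cells with 5 to 19. Tpm2 stood at 332, 366 and 408 CPM in these bins, with overlapping intervals. Among Epcam-positive cells, 20 were in cluster 4, and those held Acta2 at 2099 CPM (1794 to 2440), Tagln at 770 CPM and Col1a1 at 112 CPM, from 9 UMIs. The Tagln level came from 62 UMIs, and 3 of the 20 cells were among the 46 Acta2-high Epcam-positive cells. Their part in the Tagln ratio of those 46 cells was not tested.

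In the Vim/Grem1-positive cells the genes with the lowest rho with Acta2 were Cp (-0.317), which encodes ceruloplasmin, the protocadherin Pcdh7 (-0.290) and the secreted binding protein Igfbp7 (-0.259), over 1502 cells. In Epcam-positive cells they were Ly6d (-0.173), Fth1 (-0.160) and Cbr2 (-0.153), over 10473 cells.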
